A study of Homo sapiens with 8 samples.

Results

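The genes of 8 histone variants that are made from polyadenylated mRNAs were followed in MonoMac 6 cells with and without the cytokine APRIL. They are H2AFZ, H2AFX, H2AFY, H2AFV and H2AFJ of the H2A family, H3F3A and H3F3B of the H3 family, and the linker histone gene H1FX. The members were taken by symbol from the deposited expression table. All 8 of 8 were among its 11530 genes, and all 8 passed the floor on low values that left 11257 genes to test. Current nomenclature calls these genes H2AZ1, H2AX, MACROH2A1, H2AZ2, H2AJ, H3-3A, H3-3B and H1-10. No gene identifier other than the symbol was used.

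MonoMac 6 is an established human line from an acute monocytic leukaemia. The series asks how APRIL, a TNF family ligand encoded by TNFSF13, acts on such cells. The APRIL group was 4 libraries of cells given human APRIL at 100 ng/mL for 24 h in RPMI described as free of serum. The control group was 4 libraries without APRIL, and the labels do not state its serum content, so an effect of APRIL and one of serum cannot be told apart. Both groups are described as having unnamed baseline cytokines. Libraries are numbered, but no label says that they came from separate cultures, so every p-value measures the spread between libraries, which may be technical.

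Bulk histones are assembled onto DNA during S phase and come from clustered, replication-dependent genes whose mRNAs end in a conserved stem-loop in place of a poly(A) tail. Histone variants replace them outside S phase, and their mRNAs carry poly(A) tails and are made through the whole cell cycle. H2A.Z marks promoters, H2A.X is phosphorylated around DNA breaks, macroH2A carries a large extra domain and is linked to silent chromatin, H3.3 marks active genes and telomeric repeats, and linker histones bind the DNA between nucleosomes. The library kit captures RNA by its poly(A) tail and leaves the strand unmarked.

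The 3′ ends of the members are shown first, since a poly(A) tail is what the libraries select on. The last 30 bases of every protein-coding transcript in GENCODE 29 were searched on the transcript strand for AATAAA and then ATTAAA, the common cleavage and polyadenylation signals. AATAAA was found in 4 members, ATTAAA alone in 2 (H2AFV and H3F3A), and neither in 2 (H2AFX and H2AFY). Over 19669 genes with a coding transcript, 75.5% held either signal and 63.7% held AATAAA in that window. The 6 members with a signal follow, each by the end of its longest transcript that holds it, written as DNA with every copy of either signal in capitals.
H2AFZ: ggataagttcAATAAAggtcatatcccaaa
H2AFV: tgatggaATTAAAtatattctgtgtaaaaa
H2AFJ: cgggagccAATAAAgttggtgaaaatcgtt
H3F3A: taagtttgctATTAAAatacATTAAActat
H3F3B: atgagactaaAATAAAatttttgaagttaa
H1FX: ttgggcacAATAAAgcgtttaaacctttca
H3F3A held 2 copies of ATTAAA, which began 20 and 10 bases from the annotated end. The other 5 ends held 1 copy each, which began 20 to 23 bases from the end.

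The histone stem-loop was searched on the transcript strand as a stem strand GGNNCT, a loop TTTN and a stem strand AGNNCC, in which the first and last 6 bases had to be reverse complements. It was found in 34 genes, 0.173% of those with a coding transcript. Among the members only H2AFX held it, at bases 555 to 570 of its 1614-base transcript, so 1044 transcribed bases follow the loop in the annotated model. H2AFX is known to give both a short mRNA that ends at the stem-loop and a longer polyadenylated one, and only the latter would be kept by poly(A) selection. Of the 15 replication-dependent histone genes in the table, 11 held the stem-loop and 12 had a poly(A) signal in the last 30 bases of an annotated transcript. The search needs an exact pattern and an annotated model that reaches the element. A missing match thus does not show that a gene lacks it. HIST1H1C and HIST1H2BK, which held neither, have annotated models of only 642 and 381 bases. The H2AFX element is set beside those of an H2A and an H4 gene, with the 16 bases of the motif in capitals.
H2AFX: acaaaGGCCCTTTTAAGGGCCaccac
HIST1H2AC: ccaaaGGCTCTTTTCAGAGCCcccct
HIST1H4H: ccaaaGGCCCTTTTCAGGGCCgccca
HIST1H2AC and HIST1H4H were chosen after their values were seen, as replication-dependent H2A and H4 genes with this motif.

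The deposited values are log2 values after TMM scaling. A change is the APRIL mean minus the control mean on that scale, with its standard error from limma, and calls needed an adjusted p of at most 0.05 over all 11257 tested genes. Libraries are named APRIL 1 to 4 and control 1 to 4 by column order, which carries no other meaning. Whole reads, recovered from the values for 11131 of 11530 genes, summed to between 906945 (APRIL 3) and 5212969 (APRIL 2), a ratio of 5.75. APRIL 3 stood apart, with a median of 40 reads per gene, a deposited TMM factor of 0.875 and a limma library quality weight of 0.117, and control 1 had the next lowest weight at 0.316. Monocytic markers were present as 9 of 10 (CD68 was not in the table). The log2 of their summed linear values was 10.4 to 10.8 with APRIL and 10.5 to 10.6 without. Of other cell types, 2 of 5 B and plasma cell markers, 1 of 4 T and NK cell markers, and none of 3 erythroid and 3 stromal, epithelial or endothelial markers were in the table. For the B and plasma cell markers the same measure ran from 6.05 to 6.60 with APRIL and from 6.13 to 6.36 without. NKG7, the T and NK cell marker found, ran from 10.9 to 12.2 with APRIL and from 10.8 to 10.9 without. Each gene's values carry their own divisor, so these levels do not rank the cell types. The part of these levels in the results was not tested.

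No member passed the adjusted threshold in limma (0 of 8, against 0.0% of all tested genes). H1FX and H2AFX were the members with the largest positive differences. The unadjusted p was under 0.05 for 2 of 8 members, H1FX and H2AFX, against 11.9% of all tested genes. A positive change was measured for 8 of 8 members against 49.3% of all genes, with a median of 0.26 over the members and -0.01 over all tested genes. APRIL 3 held the highest value of 8 of 8 members against 33.6% of all tested genes, and control 1 the lowest value of 5 of 8 against 25.7%. The APRIL and control libraries overlapped for every member (0 of 8 without overlap, against 7.81% of tested genes, 3.62% with APRIL higher and 4.19% with APRIL lower). Without APRIL 3 the median over the members was 0.06, and 7 of 8 were positive, with H3F3A the exception. With library quality weights in the fit the median was 0.07 and the changes ran from 0.02 to 0.35, and without both APRIL 3 and control 1 the median was 0.03 and they ran from -0.02 (H2AFJ) to 0.39. Each member's change was smaller under both settings than with all 8 libraries weighted alike. In these bulk libraries a change in RNA per cell and a change in the share of cells of a kind cannot be told apart.

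**Figure D1:**
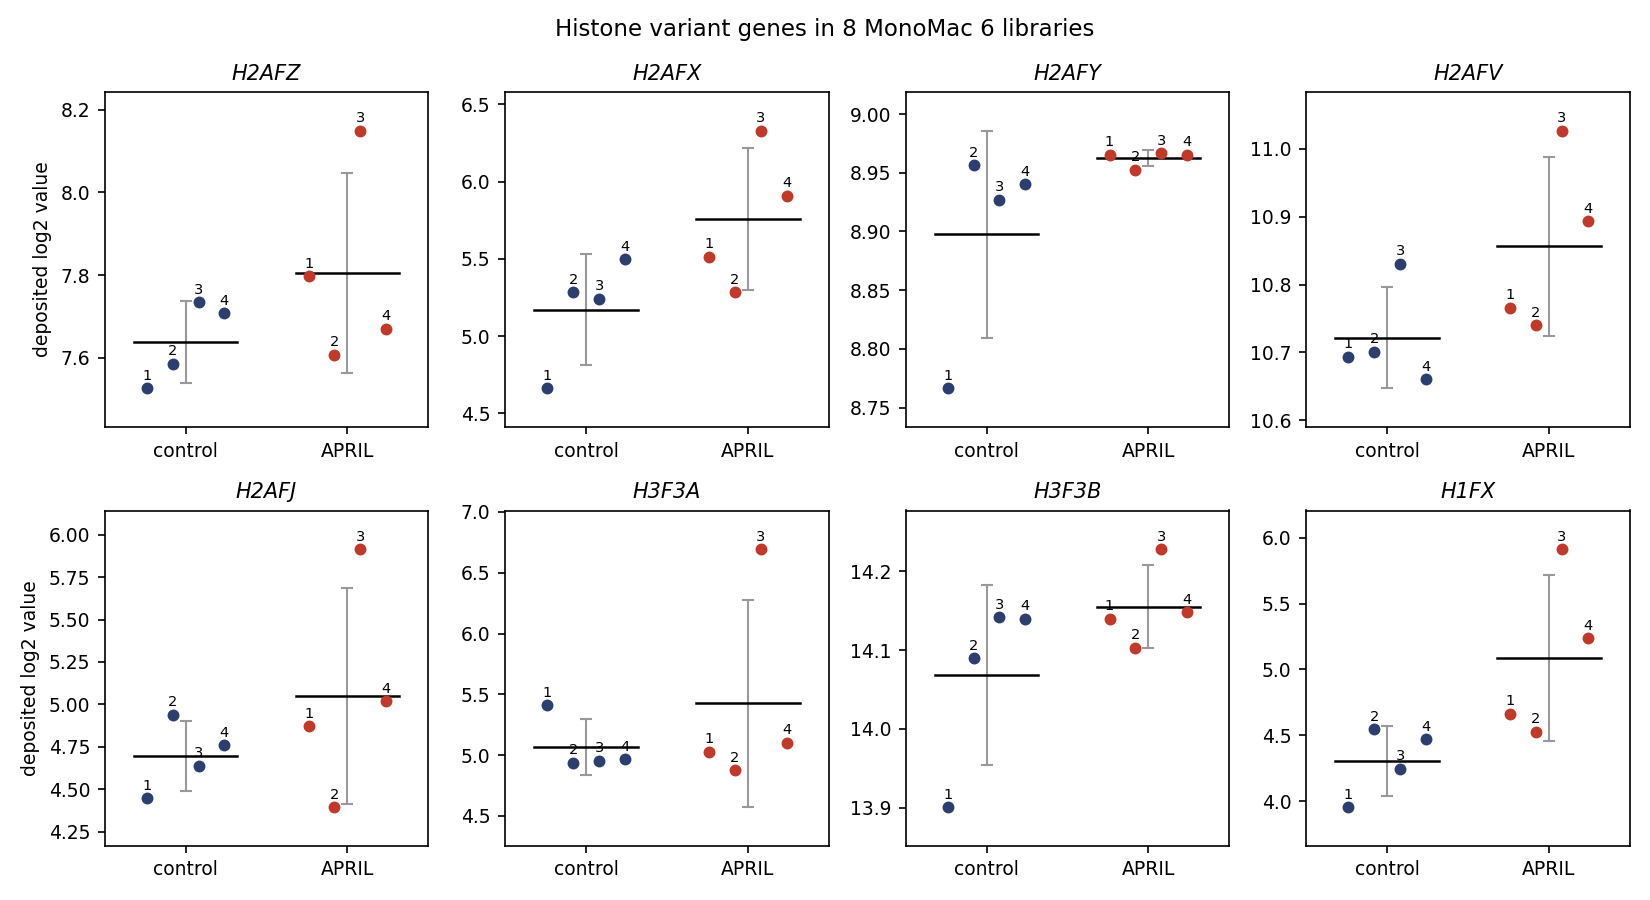
Deposited log2 values of the 8 histone variant genes in each library (points, numbered by column), with the group mean (black line) and SD (grey bar, n = 4). The vertical axes differ between panels and do not start at 0. APRIL 3 is the highest point in 8 of 8 panels, and control 1 is the lowest in 5.

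H2AFX encodes H2A.X, the variant phosphorylated by damage kinases. Its log2 values were 5.51, 5.29, 6.33 and 5.91 in APRIL 1 to 4 and 4.66, 5.28, 5.24 and 5.50 in control 1 to 4. In this gene 3 of 4 APRIL libraries lay above all controls, while APRIL 2 lay within the control range. The group means were 5.76 ± 0.46 and 5.17 ± 0.36 (SD, n = 4 each). The change was 0.59 ± 0.25 (95% interval 0.03 to 1.14), with an adjusted p of 0.400 in limma and an exact two-sided permutation p of 0.0571 (n = 4 per group). Without APRIL 3 it was 0.40, with library quality weights 0.22, and without both APRIL 3 and control 1 0.23. The recovered reads of H2AFX were 512, 824, 267 and 749 with APRIL and 205, 210, 278 and 528 without. Counting alone gives the change a standard error of 0.06.

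H1FX encodes H1X, a linker histone. Its log2 values were 4.66, 4.53, 5.91 and 5.24 with APRIL and 3.96, 4.54, 4.25 and 4.47 without. The 3 APRIL libraries other than APRIL 2 lay above all controls, and APRIL 2 lay just under control 2. The means were 5.09 ± 0.63 and 4.30 ± 0.26 (SD, n = 4 each). H1FX had the largest change of any member, 0.78 ± 0.29 (95% interval 0.14 to 1.42), with an adjusted p of 0.400 in limma and an exact permutation p of 0.0571 (n = 4 per group). Without APRIL 3 it was 0.51, with library quality weights 0.35, and without both APRIL 3 and control 1 0.39. Its recovered reads were 145, 249, 102 and 240 with APRIL and 64, 64, 71 and 132 without, which give a counting standard error of 0.10.

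H3F3A and H3F3B encode the same H3.3 protein from different mRNAs. H3F3B read 14.14, 14.10, 14.23 and 14.15 with APRIL and 13.90, 14.09, 14.14 and 14.14 without. Its 8 libraries lay close together apart from control 1, which was low. The change of H3F3B was 0.09 ± 0.09 (95% interval -0.12 to 0.29, adjusted p = 0.613 in limma). H3F3A read 5.03, 4.87, 6.69 and 5.10 with APRIL and 5.41, 4.94, 4.95 and 4.97 without. APRIL 3 alone was high in H3F3A, and control 1 was the highest control. The change of H3F3A was 0.36 ± 0.36 (95% interval -0.44 to 1.15, adjusted p = 0.592 in limma), and it was -0.07 without APRIL 3. H3F3A had 204 reads of the 906945 in APRIL 3, and 254 of the 3099404 in APRIL 4.

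H3F3A and H3F3B share sequence with processed pseudogenes. Their values, and the difference between them, are uncertain where reads could have been split among the copies. H3F3AP4 read 10.16, 9.95, 11.23 and 10.20 with APRIL and 9.95, 10.02, 10.09 and 10.06 without, again high in APRIL 3 only. Its change was 0.36 ± 0.24, or 0.08 without APRIL 3. H3F3AP6 and H3F3BP1, named after their values were seen, had changes of 0.53 ± 0.19 and 0.57 ± 0.21, with adjusted p = 0.400 in limma for each. They were 0.34 and 0.43 without APRIL 3, and 0.16 and 0.19 with length and GC trends removed. H3F3A and H3F3B were also compared within each library, where any factor that scales both alike cancels. The difference H3F3B minus H3F3A was 9.11, 9.23, 7.53 and 9.05 with APRIL and 8.49, 9.15, 9.19 and 9.17 without. Only APRIL 3 and control 1 departed from a narrow band near 9.1. The means of 8.73 ± 0.80 and 9.0 ± 0.34 (SD, n = 4) differed by -0.27 (exact permutation p = 0.6, adjusted p = 0.771 over the 2 pairs compared), and by 0.13 without APRIL 3.

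H2AFZ and H2AFV encode the 2 H2A.Z proteins. H2AFZ read 7.80, 7.61, 8.15 and 7.67 with APRIL and 7.53, 7.59, 7.74 and 7.71 without. The change of H2AFZ was 0.17 ± 0.14 (95% interval -0.15 to 0.48, adjusted p = 0.528 in limma), and 0.05 without APRIL 3. H2AFV read 10.77, 10.74, 11.03 and 10.89 with APRIL and 10.69, 10.70, 10.83 and 10.66 without. In both genes APRIL 3 was the highest library. The change of H2AFV was 0.14 ± 0.11 (95% interval -0.10 to 0.37, adjusted p = 0.503 in limma), and 0.08 without APRIL 3. H2AFV minus H2AFZ stayed between 2.88 and 3.22 with APRIL and between 2.95 and 3.17 without, with a difference of -0.03 (exact permutation p = 0.771, adjusted p = 0.771, n = 4 per group).

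**Figure D2:**
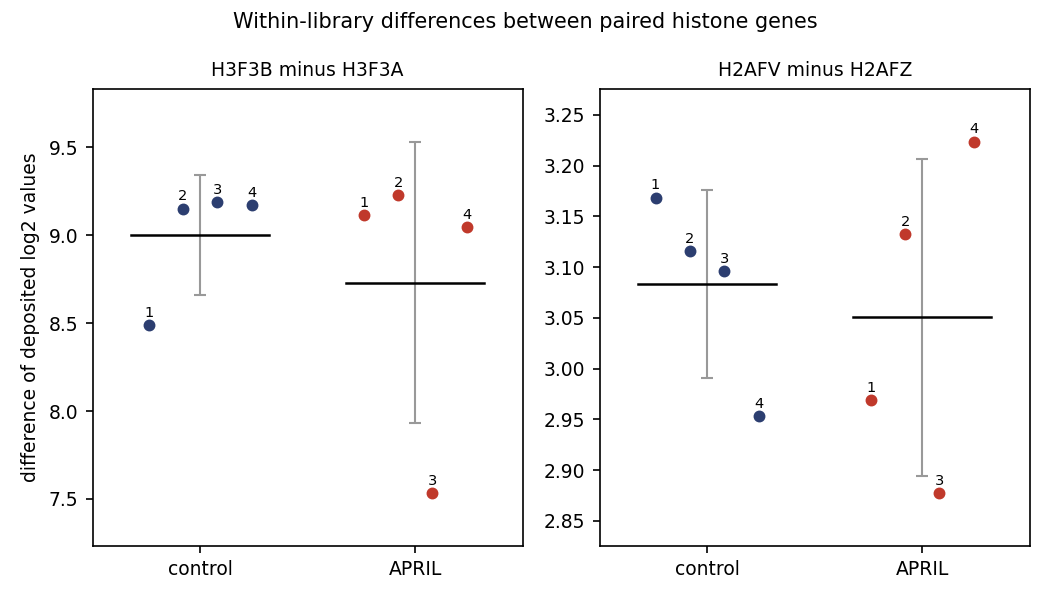
Difference of deposited log2 values within each library for 2 pairs of related histone genes (points, numbered by column), with the group mean (black line) and SD (grey bar, n = 4). The axes differ between panels and do not start at 0. The groups overlap in both panels, and APRIL 3 and control 1 are the low points of H3F3B minus H3F3A.

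H2AFY encodes macroH2A1. It read 8.97, 8.95, 8.97 and 8.97 with APRIL and 8.77, 8.96, 8.93 and 8.94 without. H2AFY varied very little, with an SD over the 8 libraries in the lowest 0.586% of tested genes. Its change was 0.07 ± 0.10 (95% interval -0.16 to 0.29, adjusted p = 0.733 in limma). The exact permutation p of H2AFY was 0.0571 (n = 4 per group), since 3 of 4 APRIL libraries lay above all controls by small margins and control 1 was low. H2AFY also had the most reads of the 5 members with recovered reads, 506 to 3189 per library, and a counting standard error of 0.03.

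H2AFJ encodes H2A.J, a variant reported to accumulate in senescent cells. It read 4.87, 4.40, 5.92 and 5.02 with APRIL and 4.45, 4.94, 4.64 and 4.76 without. APRIL 3 was high and APRIL 2 was the lowest of all 8 libraries. The change of H2AFJ was 0.35 ± 0.28 (95% interval -0.27 to 0.98, adjusted p = 0.508 in limma), and 0.07 without APRIL 3. Between 28 and 76 reads per library gave it the largest counting standard error of the 5 members, 0.16.

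**Figure D3:**
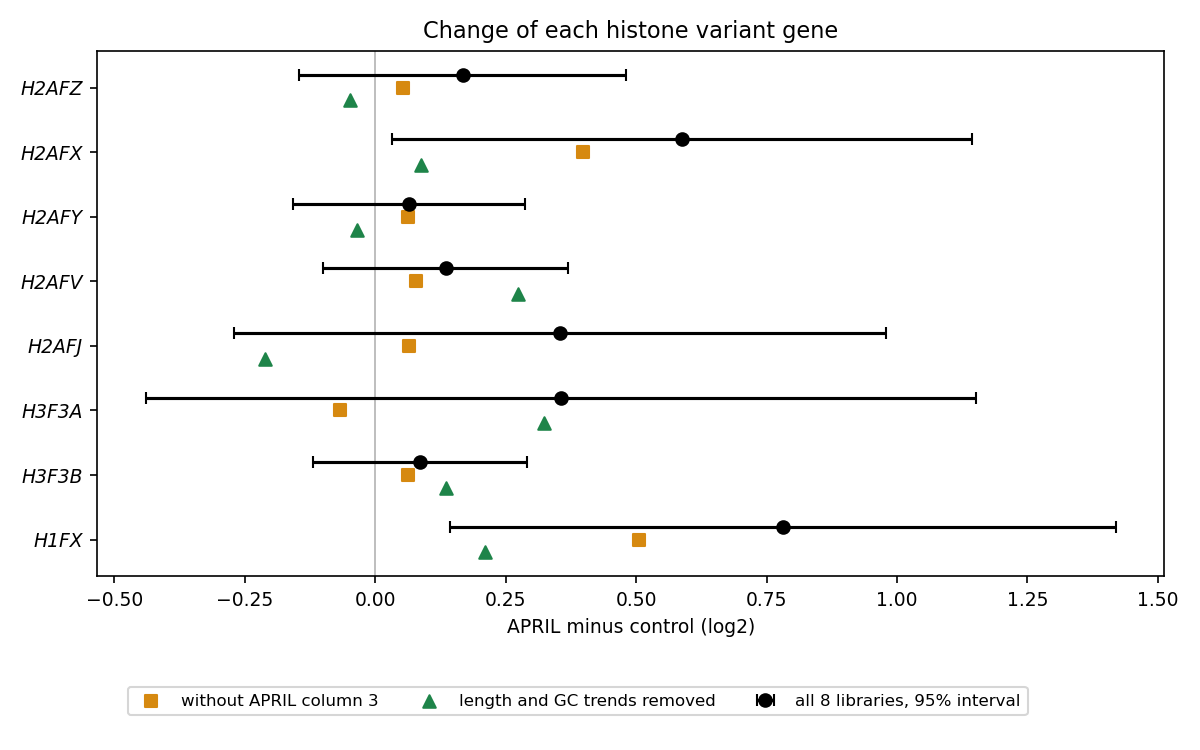
Change of each member, APRIL minus control, in log2 units. Circles with bars give the estimate from all 8 libraries and its 95% interval, squares the estimate without APRIL 3, and triangles the estimate with length and GC trends removed. The intervals of H2AFX and H1FX lie above 0 before adjustment over all genes, the square of H3F3A lies under 0, and the triangles of H2AFZ, H2AFY and H2AFJ lie on the other side of 0.

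The authors' own test was set beside these values. In the authors' deposited table H1FX had a p-value of 0.0626 and a fold of 1.72, and H2AFX 0.0901 and 1.504. For the other 6 members the authors' deposited table gave p-values from 0.126 (H2AFV) to 0.450 (H3F3A) and folds from 1.05 (H2AFY) to 1.28 (H3F3A).

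The members split by how much they varied between libraries. H2AFY, H3F3B, H2AFV and H2AFZ had an SD over the 8 libraries at the 0.586, 2.38, 6.28 and 23.0 percentile of tested genes. H2AFJ, H2AFX, H3F3A and H1FX were at the 85.3, 87.1, 93.9 and 94.1 percentile. Likeness between genes was measured as the root-mean-square difference of their deviations from their own means over the 8 libraries, in log2 units, as a description. Among members the closest were H2AFY and H3F3B at 0.04, followed by H2AFV and H3F3B at 0.09, and the farthest apart were H2AFY and H3F3A at 0.57. H2AFX and H1FX differed by 0.18. Genes that vary little come out close by this measure whatever their pattern. The genes' own root-mean-square deviations were 0.06 for H2AFY, 0.09 for H3F3B, 0.11 for H2AFV, 0.46 for H2AFX and 0.57 for H1FX.

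**Figure D4:**
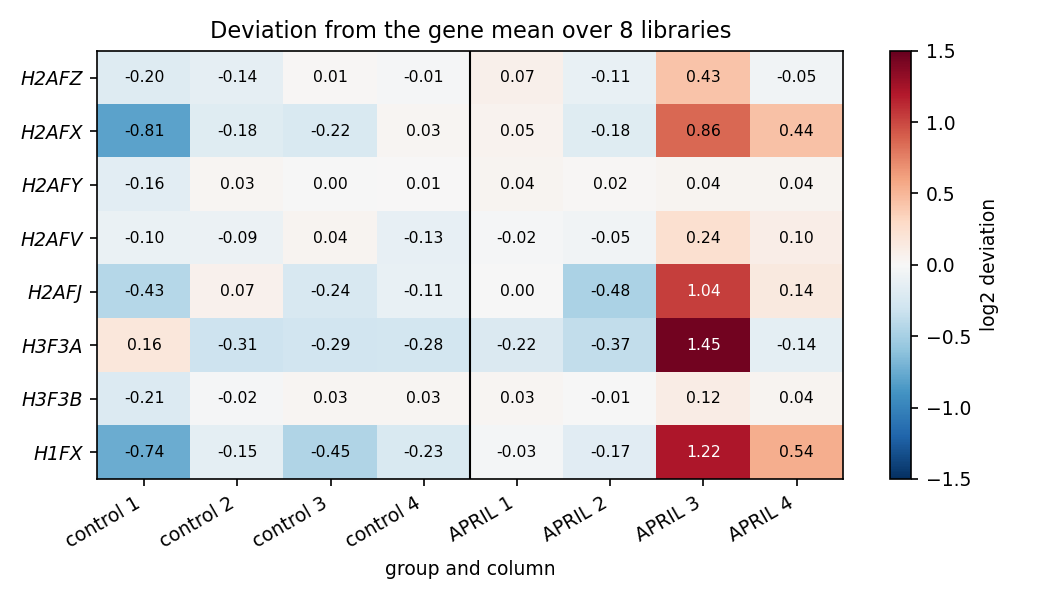
Deviation of each log2 value from the gene's own mean over the 8 libraries (colour and printed value, log2 units), with controls on the left of the black line and APRIL libraries on the right. H3F3A, H1FX, H2AFJ and H2AFX are strongly positive in APRIL 3, and H2AFX and H1FX are low in control 1.

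Over the whole table, the genes most like each member were named by the same measure, with the same limit for members that vary little. H2AFZ was closest to CCNB1, a mitotic cyclin, at 0.04 and to RPL30, a ribosomal protein gene, at 0.05. H2AFX was closest to MPV17L2 at 0.06 and DDX49 at 0.07, H1FX to NUBP2 at 0.06 and MVB12A at 0.09, and H2AFJ to CCDC167 at 0.09 and LSM4, a small RNA-binding protein gene, at 0.09. H3F3A was closest to RPS3A at 0.08 and its pseudogene RPS3AP6 at 0.11. H2AFY was closest to VPS26B and FEN1 at 0.04 each, H2AFV to PARVG at 0.04 and ZMYND19 at 0.05, and H3F3B to PKM, the pyruvate kinase gene, and SLC43A3 at 0.03 each.

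Levels were compared between genes per length for the 5 members with recovered reads, as RPM over the recovered reads, divided by transcript length in kilobases. H2AFY was highest with a median of 217 over the 8 libraries (192 to 220), followed by H2AFX at 105 (63.0 to 182), H3F3A at 41.1 (37.9 to 121), H1FX at 31.6 (21.1 to 74.6) and H2AFJ at 30.1 (22.6 to 58.2). H2AFY lay above the range of H2AFX in every library. The ranges over libraries of the neighbours H2AFX and H3F3A, H3F3A and H1FX, and H1FX and H2AFJ overlapped. Within each library H2AFX still lay above H3F3A, with as many or more reads on a shorter transcript. Reads of H3F3A could have been split with its pseudogene copies, as said above, so its place in this order is uncertain. The means of the deposited log2 values gave this order with APRIL. Without APRIL they put H2AFJ (4.70) above H1FX (4.30). They are not levels per length, since each gene's values carry a divisor that did not track length (Spearman's rho with transcript length -0.0035 over 10204 genes, which are not independent replicates). Lengths are those of GENCODE 29, which may differ from the annotation the reads were counted on.

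Transcript length and base composition moved with the change over all genes, and the members with the largest positive differences were GC-rich. Over 10359 genes with a transcript in GENCODE 29, Spearman's rho of the change with transcript length was -0.56 and with GC content 0.52, across genes that are not independent replicates. H1FX (68.6% GC, 1507 bases), H2AFX (66.4%, 1614 bases) and H2AFJ (62.9%, 644 bases) lay among the 2590 genes with the highest GC content, whose median change was 0.24. The 2591 shortest genes, with a median change of 0.26, held 5 members, H2AFZ, H2AFX, H2AFJ, H3F3A and H1FX. H3F3A (40.5% GC) lay among the 2590 genes with the lowest GC content, whose median change was -0.18.

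**Figure D5:**
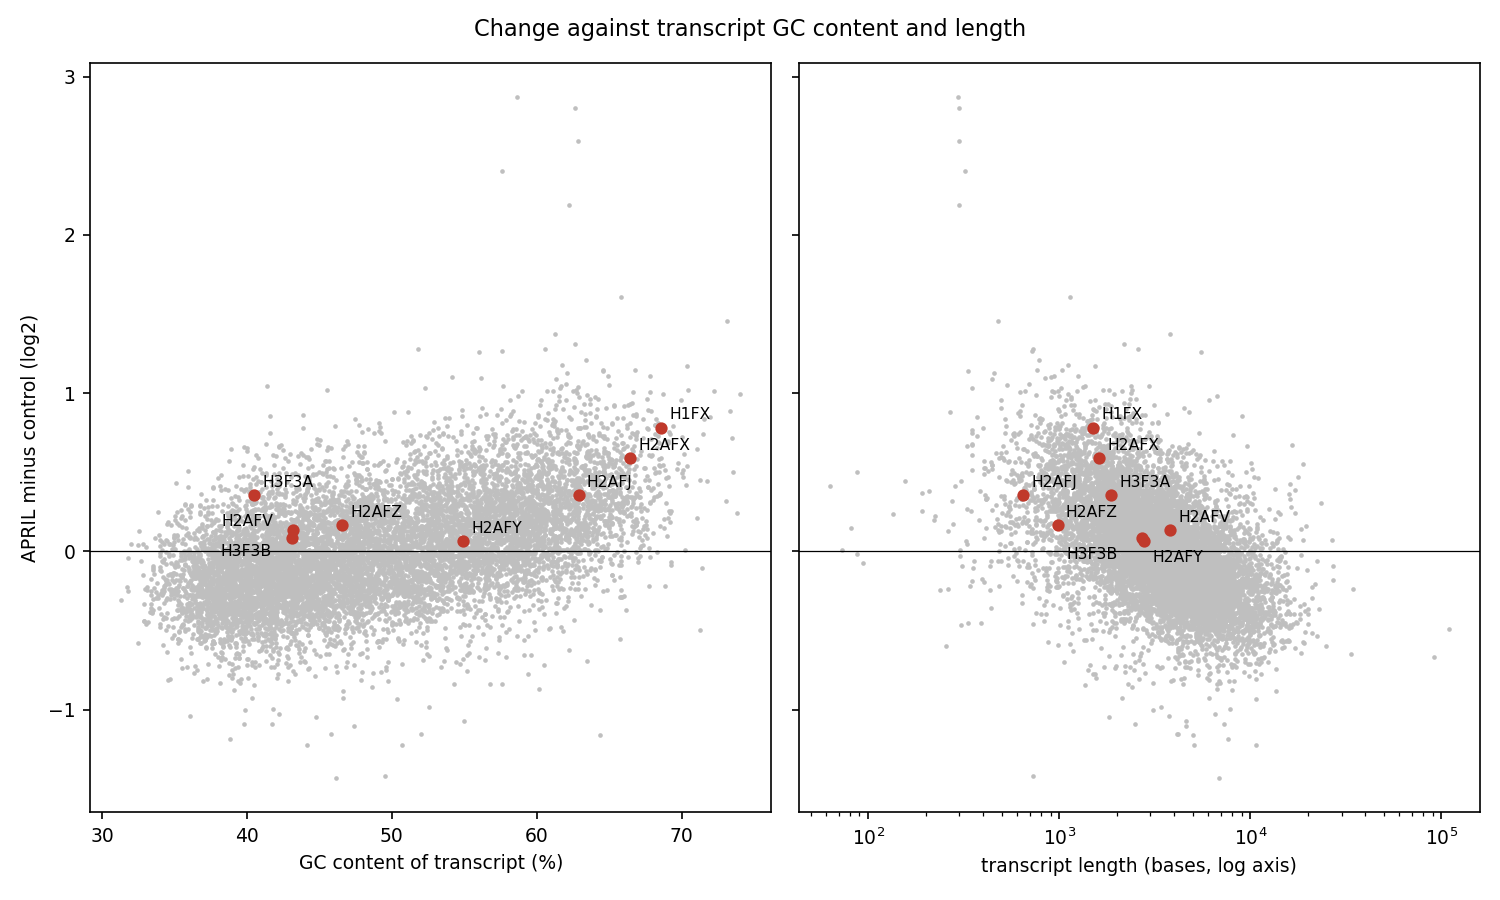
Change of each tested gene with a GENCODE 29 transcript (grey) and of the 8 members (red), APRIL minus control in log2 units, against the GC content of the transcript (left, percent) and its length (right, bases, log axis). H1FX, H2AFX and H2AFJ lie at the GC-rich end, where the median change of all genes was 0.24, and no transcript of the 8 is in the longest 2589 genes.

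Each library's trends with length and GC content were then removed and the fit repeated over 10359 genes. The change of H2AFX was then 0.09 ± 0.10 and that of H1FX 0.21 ± 0.14, against 0.59 and 0.78 before. H2AFV was 0.27 ± 0.12. The unadjusted p was under 0.05 for 1 of 8 members, H2AFV, against 7.86% of genes, and no gene passed adjustment (0.0%). The change was positive for 5 of 8 members against 48.0% of genes, with a median of 0.11. Lengths and GC contents here are those of the longest protein-coding transcript, a choice made after the data were seen. With the longest transcript of any type, used first, 8 of 8 members were positive against 47.5% of genes, with a median of 0.23. No member was without overlap between the groups (0 of 8, against 6.36% of genes in either direction and 3.62% lower with APRIL). The part of base composition and length in the changes was not tested beyond this removal.

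The region upstream of the transcription start is shown for H2AFX and H1FX, the members with the largest differences. RefSeq promoter entries (GRCh38.p14, matched by symbol) were found for 8 of 8 members. The 250 bases before the start were searched on both strands for CCAAT, a box bound by NF-Y that is common in histone promoters, and for TATAAA. The table held 12 promoter entries for the 8 members, since H3F3A has 4 and H2AFY 2. The box was found in 9 of these 12 promoters, which belong to 7 members, and in 32.01% of all 35116 promoters of the same length. The TATA motif was found in 4 of the 12, H2AFZ, H2AFX, H3F3B and H1FX, and in 10.7% of all promoters. The H2AFX window is chr11:119095466-119095715 on the minus strand and holds 4 CCAAT boxes and 1 TATA motif. The H1FX window is chr3:129316287-129316536 on the minus strand and holds 0 boxes and 1 TATA motif. Both are written 5′ to 3′ toward the start, with these motifs of either strand in capitals.
H2AFX: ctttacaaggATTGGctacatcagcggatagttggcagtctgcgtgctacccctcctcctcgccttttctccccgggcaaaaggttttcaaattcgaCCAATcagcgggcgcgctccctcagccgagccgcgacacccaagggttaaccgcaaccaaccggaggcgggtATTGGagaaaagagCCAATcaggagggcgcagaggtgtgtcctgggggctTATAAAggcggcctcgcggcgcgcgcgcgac
H1FX: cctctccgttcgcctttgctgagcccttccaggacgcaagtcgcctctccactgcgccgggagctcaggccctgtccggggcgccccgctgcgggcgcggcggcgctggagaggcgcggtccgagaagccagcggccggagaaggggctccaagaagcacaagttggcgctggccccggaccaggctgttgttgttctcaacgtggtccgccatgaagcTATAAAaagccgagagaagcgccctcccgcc
A match is a run of letters and not a measured binding site.

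Replication-dependent histone genes can appear in poly(A)-selected libraries through transcripts that run past the stem-loop. The table held 15 and 14 of them were tested. Of these, 13 had a positive and 1 a negative change (against 49.3% positive over all tested genes), and none passed adjustment. Their median change was 0.24, or 0.13 without APRIL 3, and -0.01 with 7 positive and 7 negative once the length and GC trends were removed. That removal rests on annotated lengths, and HIST1H2BK, at 381 bases, went from 0.20 to -0.37. HIST1H4J, an H4 gene, had the largest change of the list, 0.85 ± 0.30 (adjusted p = 0.400 in limma), on 7 to 27 reads with APRIL and 3 to 10 without. The change of HIST1H4J was 0.57 without APRIL 3 and 0.26 with trends removed. HIST2H2AA3, an H2A gene with a near-identical copy, had 0.57 ± 0.32 (0.31 without APRIL 3) and is uncertain for that reason. HIST2H2BE was the 1 gene with a negative change, -0.07 ± 0.24 (-0.25 without APRIL 3). HIST1H4H, whose element is printed above, had 0.60 ± 0.49, and HIST1H2AC 0.22 ± 0.19. Without APRIL 3 these were 0.15 and 0.05. In S phase genes, 13 of 21 were positive and 8 negative, with a median of 0.11 (0.02 without APRIL 3). CDT1, a replication licensing factor, had 0.36 ± 0.16 and MCM5, a subunit of the replicative helicase, 0.32 ± 0.15 without overlap, while CCNE2 had -0.25 ± 0.14 and CDC6 -0.13 ± 0.11. The other histone variant genes tested were H3F3C at 0.40 ± 0.27 and CENPA, the centromeric H3, at 0.33 ± 0.24 (0.09 without APRIL 3). The pseudogene H3F3AP4, given above, was on the same list.

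The machinery that places variants was read beside them, and no gene of these lists passed adjustment in limma. Of the 25 genes of the complexes that exchange H2A.Z, 12 were positive and 13 negative, with a median of -0.08 (7, 18 and -0.12 with length and GC trends removed). An unadjusted p under 0.05 was found for 2 in each direction, against 6.25% of tested genes higher and 5.69% lower. RUVBL2, an ATPase shared by these complexes, had 0.51 ± 0.16 and no overlap between the groups, and INO80B had 0.45 ± 0.20. ANP32E, the chaperone that removes H2A.Z, had -0.36 ± 0.13, and BRD8, a subunit of the TIP60 complex, -0.44 ± 0.18 (-0.28 without APRIL 3), both without overlap. H2AFZ and H2AFV, the histones these complexes handle, had 0.17 and 0.14. Of the 14 H3 chaperones 6 were positive and 8 negative, with a median of -0.02 (7, 7 and -0.03 with trends removed). ASF1B had 0.32 ± 0.14 and CHAF1B 0.08 ± 0.11 (0.01 without APRIL 3), while UBN2, of the HIRA complex that deposits H3.3, had -0.57 ± 0.18 without overlap and ATRX, which places H3.3 at repeats, -0.53 ± 0.22 (-0.33 without APRIL 3).

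Genes that act on H2A.X were read next. Of 15 tested of 18 kinases, phosphatases and readers of H2A.X, 3 were positive and 12 negative (against 49.3% positive over all tested genes). None passed adjustment and 1 of 15, RAD50, had an unadjusted p under 0.05 in limma, against 11.9% of all tested genes. The list had a median change of -0.34 (-0.18 without APRIL 3 and -0.12 with trends removed). Their median transcript of 6686 bases was longer than the 3363 bases of all tested genes, and the part of length was not tested. PPP4C, a phosphatase subunit, had 0.52 ± 0.26 (0.29 without APRIL 3) and RNF8, a ubiquitin ligase at breaks, 0.19 ± 0.20 (0.30). RAD50 had -0.55 ± 0.21 and the kinase gene ATR -0.72 ± 0.33, or -0.35 without APRIL 3. Of 9 chaperones of H2A-H2B and linker histones 3 were positive and 6 negative, with a median of -0.10 (5, 4 and 0.01 with trends removed). PTMA, which binds linker histone H1, had 0.25 ± 0.19 and NAP1L4 0.10 ± 0.12, while NCL had -0.35 ± 0.14 without overlap and SUPT16H, of the FACT complex, -0.27 ± 0.16. Without APRIL 3 these were 0.05, 0.03, -0.23 and -0.12. Of 12 factors that process or bind stem-loop mRNAs 4 were positive and 8 negative, with a median of -0.14 (3, 9 and -0.03 with trends removed). LSM10, of the U7 particle, had 0.55 ± 0.25 (0.31 without APRIL 3), and SLBP, the stem-loop binding protein, 0.10 ± 0.10 (0.06). SSB had -0.35 ± 0.15 without overlap and CASP8AP2, a transcription cofactor of histone genes, -0.64 ± 0.28 (-0.36 without APRIL 3). Of the 30 genes named by rule from the lists of histone relatives, S phase genes and machinery, 15 had a change smaller by over 1.5 times and 2 a larger one without APRIL 3. With length and GC trends removed 19 were smaller and 3 larger by as much, and the sign turned for 4 (INO80B at -0.01, SLBP at -0.03, H3F3AP4 at -0.02 and CDC6 at 0.03).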

How the data were processed

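The authors deposited 1 table with a value per gene and library, a p-value and a linear fold. Per the file headers the values carry a TMM factor per library, and their range of -4.96 to 15.4 shows that the deposited unit is log2. The authors' deposited p-value and fold columns were copied for the members only. Further deposited columns, a log10 of the p-value and a signed score made from it by the authors, were not used. Per the submitters' processing notes bcl2fastq and TopHat2 2.0.13 were used with genome build hg19. For the read counter, annotation and gene filters nothing is given in the sources used here. Headers give the group and no replicate number. All 8 per-library columns were used.

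The floor kept genes whose linear value reached 1 in at least 4 libraries. These were tested with limma 3.58.1 in R 4.3.3 (intensity trend, robust empirical Bayes, group as the only term, two-sided, Benjamini-Hochberg over 11257 genes), after the fit was tested on simulated data. The exact permutation test used all 70 relabelings of the libraries. Whole reads were those for which 8 values fitted log2 of reads plus 0.5 over 1 whole-number divisor (11131 genes, 96.5%, and 0 of 500 with the library constants moved). No replicate pair agreed within sampling noise (chi-square per gene 1.498 to 19.01), and each library was counted once. This check cannot tell separate cultures from technical repeats of 1 culture. Intervals and standard errors from reads cover counting error only.

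Length and GC content came from the longest protein-coding transcript in GENCODE 29, removed with splines of 4 degrees of freedom each. Promoters came from RefSeq (GRCh38.p14), whose build differs from hg19, so no coordinate was set against the files. The members and gene lists were chosen with earlier results of these data known. Of the 9 members named by the rule 1 is not reported here, and every count, median and plot of members covers the other 8. Each of these is named, with up to 2 tested genes per list and direction with the smallest p and the 2 most like genes per member. Symbols of 11 genes had become dates, and these genes were tested and not named. Alternatives changed the floor, the spread model, library weights, the trends, the use of reads (voom) and the libraries. Plots used matplotlib 3.10.9, and other steps Python 3.11.15 with scipy 1.17.1, pandas 2.3.3 and numpy 2.4.6.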

Additional observations from a re-analysis of the deposited data

Results flagged for a closer look

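In 20 groups of 4 libraries (8 members and 2 pairs, each in both groups), a library was singled out where its gap to the nearest other, as a share of the group's range, exceeded Dixon's 95% critical value. Chance flags about 1 in 20 groups, and pairs share values with their members. For H3F3A the highest APRIL value was 6.6938 in APRIL 3 (gap 0.875 of the range) and the highest control value 5.4114 in control 1 (0.937). The within-library difference H3F3B minus H3F3A was lowest in the same libraries, at 7.5342 in APRIL 3 (0.892) and 8.4896 in control 1 (0.947). For H2AFY the lowest APRIL value was 8.9525 in APRIL 2 (0.922), which is 0.01 under the next, and the lowest control value 8.7662 in control 1 (0.845).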

How the results depend on the processing

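No member passed adjustment under any alternative run, and no gene did except 4 (3 higher) with library quality weights, none of them a member. Genes with an unadjusted p under 0.05 numbered 1344 and moved to 814 with length and GC trends removed, 846 without APRIL 3 and control 1, and 507 to 2247 when 1 library was left out (507 without control 1, 2247 without APRIL 2, 669 without APRIL 4, 813 without control 3). With 1 library left out the median over the members ran from 0.0646 to 0.3868, H1FX from 0.5051 to 0.9669 and H2AFX from 0.3981 to 0.7464. Lower values came with library quality weights (0.0663, 0.3542 and 0.2195) and without both APRIL 3 and control 1 (0.0338, 0.3889 and 0.2278). When only 1 library was left out, H2AFV, H2AFY, H2AFZ, H2AFJ and H3F3B also kept their sign. H3F3A ran from -0.0667 (without APRIL 3) to 0.5397, H3F3B minus H3F3A from -0.4399 to 0.1288 (without APRIL 3) and H2AFV minus H2AFZ from -0.0903 to 0.0251 (without APRIL 3). Signs also turned for H2AFZ (-0.0477), H2AFY (-0.0344), H2AFJ (-0.2118) and H2AFV minus H2AFZ (0.3213) with trends removed, and for H2AFJ (-0.0173) and H2AFV minus H2AFZ (0.0535) without both APRIL 3 and control 1. The cause of each was not tested. The transcript that gives length was changed from the longest of any type to the longest protein-coding one after the data were seen. With the longest of any type, trends removed, the median over the members was 0.2284, H2AFY was 0.35, H2AFJ 0.42 and H2AFZ 0.03, and 856 genes had an unadjusted p under 0.05. The edgeR quasi-likelihood test on recovered reads was not run, and voom on these reads gave H1FX 0.70 and H2AFX 0.58, with no value for either pair since a gene of each lacked recovered reads. No paired analysis was possible because the column headers name only the group. Depth limits H2AFJ most among the members with recovered reads, and the median 95% half-width over all tested genes was 0.41.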
